A study of Mus musculus with 9 samples.

Results

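The genes described here are 8 markers by which type 1 conventional dendritic cells (cDC1s) are recognised in the mouse: Xcr1, Cadm1, Cd8a, Cd24a, Naaa, Ifi205, Wdfy4 and Ppt1. They were taken by symbol, whatever their values, from the 51912 genes of the deposited count table, and all 8 were found there. Clec9a, which encodes the cDC1 receptor DNGR-1, was left out because it is the gene deleted in this study. Bulk RNA-seq was performed on sorted pre-cDCs, the committed precursors of conventional dendritic cells, from mixed bone marrow (BM) chimeras. Lethally irradiated CD45.1/2 recipients had received equal parts of BM from BL/6 CD45.1 donors, called WT, and from CD45.2 donors of the genotype Clec9aCre/Cre, called DNGR-1 KO. The 9 samples comprised 3 WT and 3 KO from BM, and 1 WT and 2 KO from spleen.

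Both genotypes developed in the same irradiated hosts, and each sample held cells pooled from a pair of mice. By the total of mice given in the study's figure legend, samples of different groups shared hosts, and the labels do not say which, so the p-values below treat as independent samples that may not be. In Clec9aCre/Cre animals both copies of the Clec9a locus carry Cre in place of a working receptor, and the allele came from embryonic stem cells of another BL/6 substrain before backcrossing. The CD45 allele and the genotype go together, so they cannot be told apart. For WT samples the deposited source and description differ on that allele, CD45.1 against CD45.2. No treatment of these chimeras is stated beyond irradiation and the BM graft. The age of the mice is stated in the methods for the study and not for each sample. The libraries held 17103806 to 23722298 counts, and 3 counts correspond to 0.127 to 0.179 CPM, where CPM are counts scaled to the library's total after TMM normalization. Counts of Clec9a were 905 to 1766 in WT BM, 1 in each KO BM sample, 2459 in WT spleen and 0 in both KO spleen samples. The WT spleen sample stood apart in the number of genes with at least 10 counts, 10302 against 11531 and 11609 in KO spleen and 12702 to 13298 in BM. The 9 pre-cDC markers, among them Flt3, Itgax and Kit, were above 3 counts in every sample.

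cDC1s are the dendritic cells that take up debris of dead cells and present its antigens to CD8 T cells, which is called cross-presentation. The spleen is one of the organs where pre-cDCs mature, and cDC1s need the transcription factors IRF8, BATF3 and ID2. The markers of the finished cell differ in role. XCR1 is the receptor for the chemokine XCL1, CADM1 is an adhesion molecule, CD8α is a coreceptor chain that cDC1s of lymphoid organs share with T cells, and CD24 is a small glycosylated surface protein. WDFY4 is a large BEACH-domain protein needed for cross-presentation of cell-associated antigen. NAAA and PPT1 are lysosomal hydrolases, and Ifi205 belongs to the interferon-inducible PYHIN family of nucleic acid-binding proteins.

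To see whether the marker genes stood at like levels in pre-cDCs, their CPM values were divided by exon length and ordered within each tissue. In BM, Cd24a was the highest of the 8, with a median of 150.5 CPM per kb over the 6 samples and a range that met that of no other gene. Ppt1, Naaa and Ifi205 followed at medians of 47.3, 45.9 and 35.0 CPM per kb with overlapping ranges, and these neighbours did not differ beyond their spread. Wdfy4 came next at 9.37 CPM per kb, below all of those and above the remaining genes. Xcr1 at 1.13, Cd8a at 0.139 and Cadm1 at 0.106 CPM per kb were the lowest. Neighbours among them overlapped in range, but Xcr1, from 0.223, and Cadm1, up to 0.197 CPM per kb, did not overlap each other. In BM, 6 of the 8 genes were above 3 counts in every sample, while WT BM 1 had 1 count of Cadm1 and 0 of Cd8a. In spleen, the medians ran from 121.2 CPM per kb for Cd24a through 99.0 for Ppt1, 95.7 for Cd8a, 78.4 for Ifi205 and 63.0 for Naaa to 23.5 for Xcr1, 13.0 for Wdfy4 and 5.69 for Cadm1. Only the step from Naaa to Xcr1 separated neighbours in the spleen order without overlap over the 3 samples. These levels are of pooled RNA, in which fewer cells of a type and less RNA per cell cannot be told apart.

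**Figure D1:**
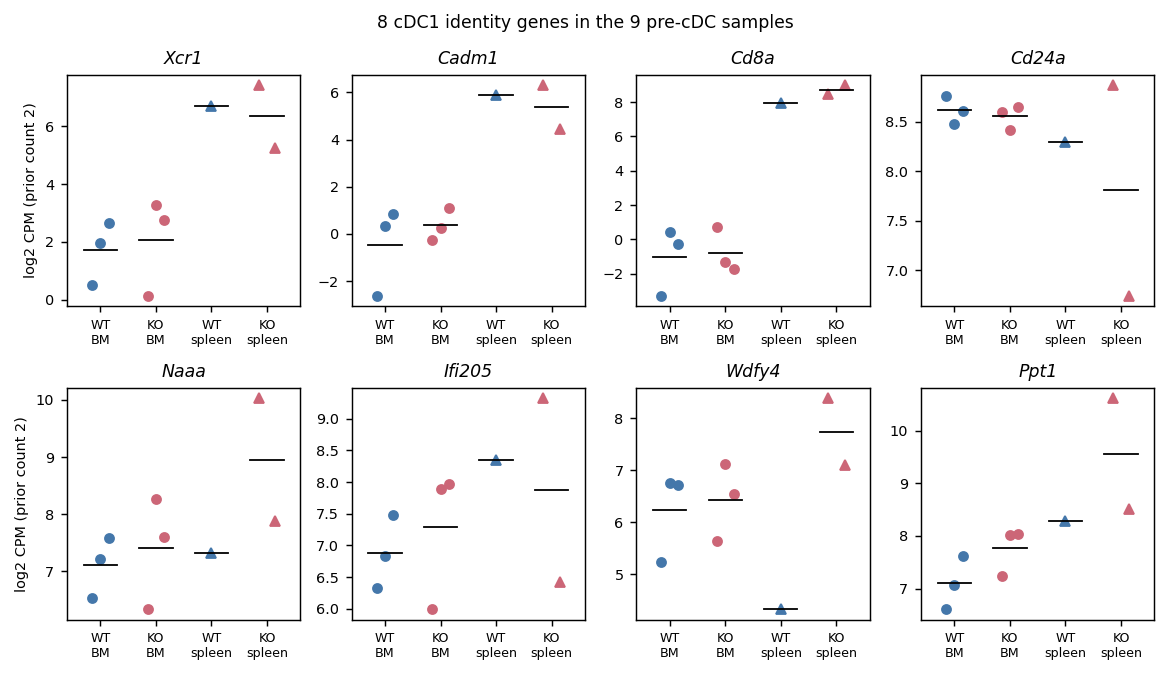
Levels of the 8 genes in each sample. The vertical axis is log2 CPM with a prior count of 2, each point is 1 sample (circles BM, triangles spleen, blue WT, red KO), and bars are group means. Xcr1, Cadm1 and Cd8a lay far higher in all 3 spleen samples than in the 6 BM samples, Cd24a was level across BM, and the 2 KO spleen samples were far apart for every gene but Cd8a.

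The 250 bases before the transcription start are shown for 3 of the 4 genes that rose in spleen, Xcr1, Cd8a and Ppt1, and for Ifi205, which did not pass that test. Of the 8 genes, 6 had a sequence in the RefSeq table (GRCm38.p6), and Cadm1 and Cd24a had none. Each is written from 5′ to 3′ on the strand of its gene, and capitals mark matches to the motifs named after them.
Xcr1, minus strand, chr9:123862030-123862279: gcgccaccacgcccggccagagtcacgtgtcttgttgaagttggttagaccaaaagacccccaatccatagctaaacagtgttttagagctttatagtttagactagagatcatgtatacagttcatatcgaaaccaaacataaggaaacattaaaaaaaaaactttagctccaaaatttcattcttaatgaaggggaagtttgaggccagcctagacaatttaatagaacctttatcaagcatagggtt
Cd8a, plus strand, chr6:71373177-71373426: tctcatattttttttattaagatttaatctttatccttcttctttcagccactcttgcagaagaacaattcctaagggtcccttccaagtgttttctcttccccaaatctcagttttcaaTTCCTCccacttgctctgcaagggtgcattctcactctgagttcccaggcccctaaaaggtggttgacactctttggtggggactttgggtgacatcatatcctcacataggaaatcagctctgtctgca
Ppt1, plus strand, chr4:122835977-122836226: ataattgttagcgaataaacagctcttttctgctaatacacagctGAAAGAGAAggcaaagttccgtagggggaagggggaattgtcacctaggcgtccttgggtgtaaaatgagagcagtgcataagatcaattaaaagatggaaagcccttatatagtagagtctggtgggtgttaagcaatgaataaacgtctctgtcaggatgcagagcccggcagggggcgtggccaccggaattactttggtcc
Ifi205, minus strand, chr1:174031756-174032005: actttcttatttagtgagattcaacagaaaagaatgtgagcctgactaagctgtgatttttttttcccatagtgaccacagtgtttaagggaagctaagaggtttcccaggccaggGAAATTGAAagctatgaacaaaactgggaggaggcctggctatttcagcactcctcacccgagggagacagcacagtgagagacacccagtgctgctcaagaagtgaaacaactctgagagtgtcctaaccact
The motifs searched on both strands were TGANTCA (AP-1, the kind of site that BATF3 complexes bind), GAAANNGAA (a pair of IRF half-sites), GAGGAA (the core of PU.1 sites) and TCACGTGA (an E-box common in lysosomal genes). They do not overlap one another in these 6 windows. The IRF pair was found in 2 of the 6 promoters, at bases -134 to -126 from the start in Ifi205 and at -205 to -197 in Ppt1, and in 7.13% of all 32851 promoters of this length. The PU.1 core was found in Cd8a, at bases -130 to -125, and in 23.3% of all promoters. The AP-1 and E-box motifs, present in 6.75% and 0.785% of all promoters, had no match among the 6. The Cd8a window held 0 CpG pairs and that of Ifi205 held 1, where Xcr1 had 5, Ppt1 had 7 and the median over all promoters was 6. A match describes letters and is not evidence of binding.

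Xcr1 (ENSMUSG00000060509, chr9:123852315-123862029, GRCm38) marked the spleen samples. Its counts were 22, 74 and 121 in WT BM, 22, 196 and 134 in KO BM, 1767 in WT spleen, and 3111 and 905 in KO spleen. The lowest spleen sample, at 38.2 CPM, exceeded the highest BM sample, at 9.61 CPM, so the tissues did not overlap. The level was 105.3 ± 67.3 CPM (SD, n = 3) in spleen and 4.78 ± 3.36 CPM (SD, n = 6) in BM, a 21.6-fold rise with a log2 fold change of 4.43 (SE 0.72, adjusted p = 0.00352 in the edgeR quasi-likelihood test with genotype as a covariate). With the KO samples alone, the log2 fold change was 4.21 and the adjusted p 0.0559.

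Cadm1 (ENSMUSG00000032076, chr9:47530173-47857637), which lies on the same chromosome, was near the limit of detection in BM. Its counts were 1, 22 and 33 in WT BM, 16, 22 and 41 in KO BM, 1002 in WT spleen, and 1428 and 508 in KO spleen. The single count in the first WT sample has an exact 95% counting interval of 0.00151 to 0.333 CPM. Every spleen sample was above every BM sample, and Cadm1 rose by a log2 value of 5.55 (SE 0.79, edgeR adjusted p = 0.00185), or 46.7-fold.

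Cd8a (ENSMUSG00000053977, chr6:71373427-71379173) differed most between the tissues. Its counts were 0, 24 and 14 in WT BM, 34, 6 and 4 in KO BM, 4135 in WT spleen, and 6268 and 12051 in KO spleen. For the 0 in the first WT BM sample, a floor of 3 counts stands at 0.179 CPM and the exact 95% upper limit at 0.220 CPM. The mean was 367.3 CPM in spleen and 0.665 CPM in BM, and the log2 fold change was 8.98 (SE 0.78, edgeR adjusted p = 1.42e-04). Cd8a is also a T cell gene, and T cell markers moved with it, although the stated gate excluded cells with CD3 on their surface. The summed level of 10 T cell markers was 3.01 to 11.9 CPM in BM, 1214 CPM in WT spleen, and 1692 and 5069 CPM in KO spleen. All 10 were called higher in spleen. In BM, 2 of the 10 were above 3 counts in every sample and 5 were at or under 3 counts in every WT sample. None was at or under 3 counts in all the BM samples. Cd8b1, the partner chain that T cells express and cDC1s mostly lack, had counts of 0 in all 3 WT BM samples, 10, 5 and 18 in KO BM, 2768 in WT spleen, and 5361 and 17280 in KO spleen. The ratio of Cd8a to Cd8b1 counts was 1.49 in WT spleen and 1.17 and 0.697 in KO spleen. Cd8a was the only one of the 8 genes that was higher in the second KO spleen sample than in the first. Cd8b1 and the T cell sum, of which Cd8b1 is a part, were so too. The part of T cell RNA in the Cd8a difference was not tested.

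Cd24a (ENSMUSG00000047139, chr10:43578284-43584265) did not follow the other surface markers. Its counts were 7229, 6875 and 7624 in WT BM, 8545, 6959 and 8005 in KO BM, 5274 in WT spleen, and 8412 and 2528 in KO spleen. The BM samples lay within 1.26-fold of one another, and the first KO spleen sample was above all of them while the other 2 spleen samples were below. The log2 fold change between tissues was -0.37 (SE 0.37, edgeR adjusted p = 0.534).

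Among the 2 lysosomal enzymes, Ppt1 passed the test and Naaa did not. Ppt1 (ENSMUSG00000028657, chr4:122836242-122859175), which removes palmitate from proteins, had counts of 1635, 2580 and 3843 in WT BM, 3332, 5256 and 5260 in KO BM, 5252 in WT spleen, and 28168 and 8618 in KO spleen. All spleen samples, from 311.4 CPM, were above all BM samples, up to 263.5 CPM. Its log2 fold change was 1.76 (SE 0.45, edgeR adjusted p = 0.0268), or 3.39-fold. The call was lost under 10 of 20 alternatives, with adjusted p-values up to 0.260. It was lost without WT BM sample 2 (log2 fold change 1.77, adjusted p 0.0509), KO BM sample 1 (1.58, 0.0730), KO BM sample 2 (1.81, 0.0583), KO BM sample 3 (1.79, 0.0620) or KO spleen sample 1 (0.92, 0.0666), and without both BM samples numbered 1 (1.52, 0.127). Ppt1 shares exon sequence on opposite strands with Cap1, which had 573 to 3087 counts a sample, and 8 of the 9 Ppt1 values were not whole numbers, so reads of the overlap may have been divided between them.

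Naaa (ENSMUSG00000029413, chr5:92257659-92278170), an amidase that breaks down N-acylethanolamines, had counts of 1557, 2872 and 3767 in WT BM, 1785, 6261 and 3868 in KO BM, 2703 in WT spleen, and 18798 and 5553 in KO spleen. Only the first KO spleen sample lay above the BM range, and the log2 fold change was 1.20 (SE 0.58, edgeR adjusted p = 0.183).

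Wdfy4 (ENSMUSG00000051506, chr14:32959547-33185508) had counts of 633, 2078 and 2045 in WT BM, 1101, 2825 and 1859 in KO BM, 338 in WT spleen, and 6019 and 3252 in KO spleen. WT spleen was the lowest of the 9 samples and the first KO spleen sample the highest. The log2 fold change between tissues was 0.43 (SE 0.75, edgeR adjusted p = 0.739) with genotypes pooled. It was -2.06 (SE 0.84, adjusted p = 0.120) in WT and 1.33 (SE 0.57, adjusted p = 0.159) in KO in the edgeR fit of the 4 groups, opposite in sign and past the threshold in neither. The WT value sets 1 spleen sample against 3 BM samples and takes its spread from the other groups.

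Ifi205 (ENSMUSG00000054203, chr1:174011998-174031810) had counts of 1350, 2185 and 3496 in WT BM, 1406, 4834 and 5000 in KO BM, 5526 in WT spleen, and 11534 and 2030 in KO spleen. The second KO spleen sample lay inside the BM range and the other 2 spleen samples above it. The log2 fold change was 1.15 (SE 0.58, edgeR adjusted p = 0.201), and 1.61 (adjusted p = 0.0394) without KO spleen sample 2. None of its 9 values was a whole number, so reads may have been divided between it and other genes, and its level is uncertain.

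In the tissue comparison as a whole, 4 of the 8 genes rose in spleen (Xcr1, Cadm1, Cd8a and Ppt1) and 0 fell, where 15.7% of the 15813 genes tested were called, 5.98% higher and 9.7% lower. In the fit of the 4 groups the same 4 rose in KO, where 4.55% of genes did, and 3 of them, without Ppt1, in WT, where 5.24% did with 1 spleen sample and a spread taken from the other groups. In a fit of the KO samples alone, edgeR called only 2 of the 8, Cadm1 and Cd8a, and Xcr1 had an adjusted p of 0.0559. The 4 genes that rose with all samples fitted had every spleen sample above every BM sample, against 7.78% of all genes. Of the 8, 0 had every spleen sample below, against 15.8%. The median log2 fold change was 1.48 over the 8 genes and -0.21 over all genes. For a single gene, an exact two-sided permutation test of 3 spleen against 6 BM samples cannot go below p = 0.0119, the value these 4 genes reached. Without the WT spleen sample, which stood apart, edgeR still called all 4, with log2 fold changes of 4.21 for Xcr1, 5.30 for Cadm1, 9.28 for Cd8a and 2.12 for Ppt1. Exact permutation p-values of the others were 0.143 for Naaa, 0.167 for Cd24a, 0.214 for Ifi205 and 0.762 for Wdfy4. Markers of other cells also differed between the tissues. Neutrophil markers summed to 797 to 2500 CPM in BM and at most 0.802 CPM in spleen, with 4 of 5 called lower. Most of the BM sums was Mpo, at 694 to 2124 CPM, while Ly6g had at most 19 counts in a BM sample. In every spleen sample 4 of the 5 were at or under 3 counts. Erythroid markers summed to 82.8 to 535 CPM in BM and 5096 to 30502 CPM in spleen, with 3 of 5 called higher and 1 lower. NK cell markers summed to 46.8 to 108.4 CPM in BM and 781 to 1931 CPM in spleen, with 6 of 7 called higher. Klrd1, at 451 to 577 CPM, and Nkg7, at 221 to 1042 CPM, made up most of the spleen sums. Ncr1 had 0 counts in WT spleen and 253 and 281 in KO spleen. Klrb1c, which encodes NK1.1, had 0 counts in WT spleen and 0 and 266 in KO spleen. Macrophage markers summed to 931 to 1463 CPM in BM and 769 to 2044 CPM in spleen, with 3 of 6 called higher. Most of each macrophage sum was Ly6c2, at 925 to 1453 CPM in BM and 616 to 1651 CPM in spleen. Adgre1 had 1.75 to 10.2 CPM in BM and 66.5 to 123.7 CPM in spleen. In the same order, Vcam1 had 0 to 5.25 and 13.6 to 215.4 CPM, and C1qa 0.460 to 2.13 and 4.39 to 94.4 CPM. The ranges of Ly6c2, Fcgr1 and Mertk overlapped between the tissues. Of 9 cDC2 markers 2 were called higher and 1 lower, and of 6 pDC markers 1 lower. The stated lineage gate excluded cells with CD3, NK1.1, Ly6G or Ter119, among others, on their surface. What other cells contributed to the tissue differences was not tested.

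**Figure D2:**
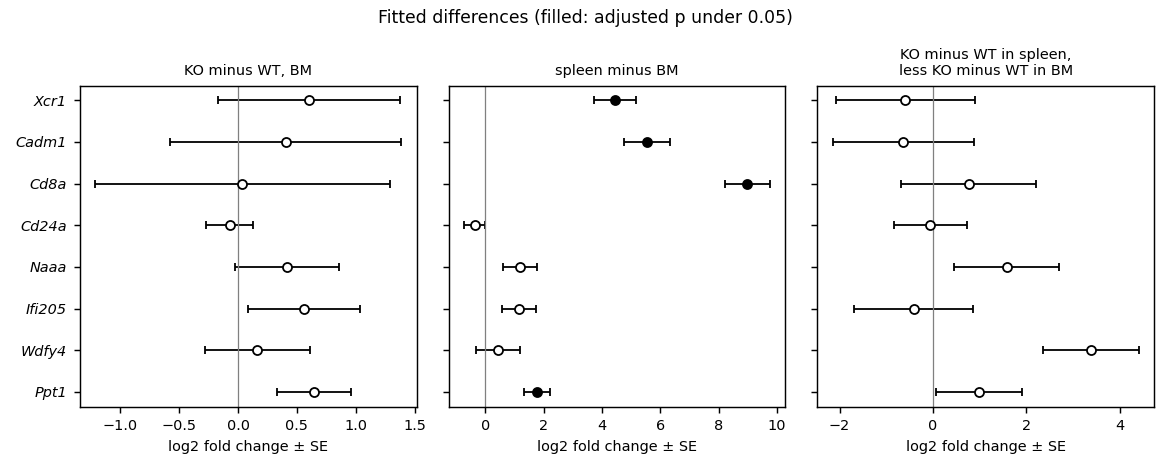
Fitted log2 fold changes of the 8 genes with standard errors, for KO against WT in BM (left), spleen against BM (middle) and the difference of the genotype effect between the tissues (right). Filled points have an adjusted p under 0.05 in edgeR. The 4 filled points, all in the middle panel, are Xcr1, Cadm1, Cd8a and Ppt1, and the horizontal scales of the panels differ.

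To ask whether loss of DNGR-1 changed the cDC1 program of BM pre-cDCs, the 3 KO and 3 WT BM samples were compared. None of the 8 genes passed the threshold in edgeR (0 of 8, where 0.0307% of the 13016 genes tested, or 4 genes, did). At an unadjusted p under 0.05, 498 genes were found and 0 of the 8. DESeq2 called 11 genes and limma-voom, like DESeq2, 0 of the 8. No gene of the 8 had all KO samples above all WT samples, which 4.96% of genes had, or all below, which 4.59% had. For 7 of the 8 the log2 fold change was above 0, and the median was 0.41 against -0.00 over all genes, but no value passed the test. This lean was not particular to the 8 genes. Values were above 0 for 8 of 8 cDC2 markers tested (median 0.58), 10 of 10 PYHIN genes (0.48) and 4 of 4 macrophage markers (0.83). Pre-cDC markers had a median of 0.25, and neutrophil and erythroid markers had medians of -0.14 and -0.26. For a single gene, 3 against 3 samples cannot give an exact permutation p below 0.1.

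Ppt1 came nearest, at 224.0 ± 63.6 CPM in KO and 142.7 ± 50.1 CPM in WT BM (SD, n = 3 each). Its log2 fold change was 0.65 (SE 0.31, 95% interval -0.059 to 1.35, edgeR adjusted p = 0.861, exact permutation p = 0.2). KO minus WT differences between samples of the same number were 0.63, 0.95 and 0.42 in log2 CPM, all above 0, and in a fit that blocks on sample number the log2 fold change was 0.66 (adjusted p = 0.772). Xcr1 differed by 0.60 (SE 0.77, edgeR adjusted p = 0.899), with samples from 0.995 to 9.61 CPM in KO and from 1.31 to 6.19 CPM in WT. Ifi205 differed by 0.56 (SE 0.48), Naaa by 0.41 (SE 0.44), Cadm1 by 0.40 (SE 0.98), Wdfy4 by 0.16 (SE 0.45) and Cd8a by 0.04 (SE 1.25) on the log2 scale. Cd24a was the most narrowly bounded, with a log2 fold change of -0.07 and a 95% interval from -0.52 to 0.38. The intervals of Cadm1, from -1.79 to 2.60, and Cd8a, from -2.76 to 2.83, were the widest, and changes within them were not detectable with these samples.

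The samples numbered 1 stood low in both BM groups. They were the lowest of their own group in both genotypes for 6 of the 8 genes (Xcr1, Cadm1, Naaa, Ifi205, Wdfy4 and Ppt1), which 12.2% of the 13016 genes were. For 5 of the 8, all but Ppt1 of those 6, both samples numbered 1 lay below the other 4 BM samples, against 5.67% of genes. This pattern was looked at after the values were seen. The place of Cadm1 rests on few counts, 1 and 16 in the samples numbered 1 and 22 to 41 in the other 4. Its exact 95% counting intervals in KO BM 1, 0.414 to 1.17 CPM, and KO BM 2, 0.676 to 1.63 CPM, overlapped. For Xcr1 the samples numbered 1 had 1.31 and 0.995 CPM, and the other 4 had 3.84 to 9.61 CPM. Ifi205 showed 80.6 and 63.6 CPM against 113.3 to 250.5 CPM, and Wdfy4 37.8 and 49.8 CPM against 93.1 to 138.6 CPM. Of 16 further cDC1 genes tested in BM, 11 were lowest in the samples numbered 1 of both genotypes and 9 had both below the other 4. The same pair had the highest summed levels of neutrophil markers, 2168 and 2500 CPM against 797 to 1430 CPM. Most of each neutrophil sum was Mpo, at 694 to 2124 CPM over the BM samples, while Ly6g was at most 0.955 CPM. The pair also had the lowest sums of pre-cDC markers, 4103 and 4899 CPM against 7002 to 11985 CPM. Of these pre-cDC markers, Cd74 and H2-Ab1 had the widest ranges in BM, 750 to 4301 and 338 to 2360 CPM. Not every pre-cDC marker was low in the samples numbered 1, since of the 6 BM samples Kit was highest in KO BM 1 (141.9 CPM) and Spn in WT BM 1 (187.0 CPM). The part of other cells in these samples in the lower marker levels was not tested. Without the 2 samples numbered 1, edgeR called 8 genes between KO and WT BM and still 0 of the 8.

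**Figure D3:**
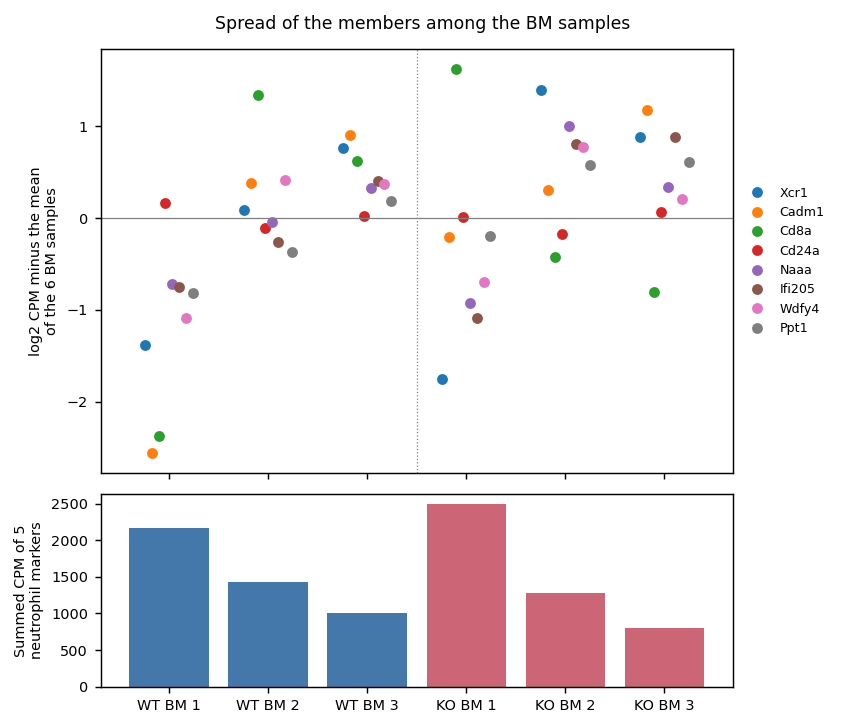
The 8 genes in each BM sample, as log2 CPM with a prior count of 2 minus the mean of the 6 BM samples (top; 1 colour for each gene), above the summed CPM of 5 neutrophil markers in the same samples (bottom). In WT BM 1 and KO BM 1 most genes lie below the line, Cd24a stays near it, and the neutrophil sums, mostly Mpo, are the highest.

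The 3 spleen samples, of which 1 was WT, were not tested for genotype by themselves, and the fit of all 4 groups takes the lone WT sample to vary as the others do. The 2 KO samples also disagreed: the first exceeded the second by 2.44-fold for Wdfy4 to 7.48-fold for Ifi205 in 7 of the 8 genes, and a gap over 2-fold in that direction was found in 20.3% of the 15813 genes. The first KO spleen sample was the highest of all 9 samples for the same 7 genes, against 14.3% of genes. The 2 KO spleen samples also differed in marker sums. In the first and the second, pre-cDC markers, mostly Cd74, summed to 33226 and 9294 CPM and erythroid markers to 30502 and 9670 CPM. T cell markers were lower in the first, at 1692 against 5069 CPM. NK cell markers (855 and 1931 CPM) and macrophage markers (943 and 2044 CPM) had that order too. The cDC2 sums differed less, 1401 and 1278 CPM. What other cells contributed to the gap was not tested. Both KO samples were above the WT sample for Cd8a, Naaa, Wdfy4 and Ppt1, 4 of the 8 where 29.7% of genes were so placed, and for 0 of the 8 were both below, against 26.8%. For Xcr1, Cadm1, Cd24a and Ifi205 the WT sample lay between the KO samples, with the second KO sample 2.74-, 2.77-, 2.93- and 3.82-fold below WT. Naaa was 6.52- and 1.46-fold above WT, and Ppt1 5.03- and 1.17-fold above.

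Wdfy4 stood out with KO samples at 334.4 and 137.3 CPM, 16.7- and 6.85-fold above the WT sample at 20.0 CPM (exact 95% counting interval 18.0 to 22.3 CPM). In the fit of the 4 groups, the KO minus WT log2 difference in spleen was 3.56 (SE 0.94, edgeR adjusted p = 0.0511), and 8.58% of genes passed the threshold there. The difference of the genotype effect between spleen and BM was 3.39 for Wdfy4 (SE 1.03, edgeR adjusted p = 0.0971), and 0 of the 8 genes passed in edgeR, where 7.01% of genes did. At an unadjusted p under 0.05 there were 3134 of 15813 genes and 1 of the 8, Wdfy4 (0.00944). It passed with DESeq2 (3.38) and without KO spleen sample 2 (3.89), and its adjusted p over the 14 alternatives ranged from 0.00422 to 0.190. Without KO spleen sample 1, Cd24a passed in its place with a value of -1.49. WT spleen is also the sample in which the fewest genes were detected, and this cannot be told apart from genotype with 1 sample.

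**Figure D4:**
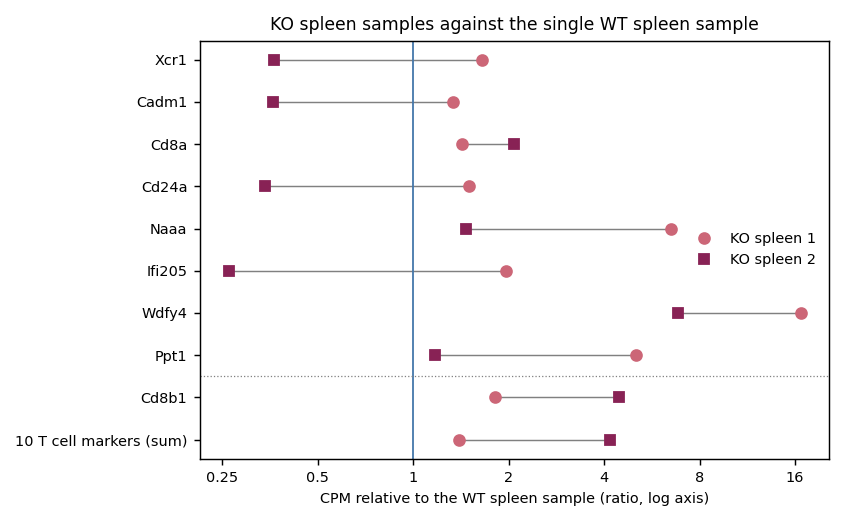
CPM in KO spleen 1 (circles) and KO spleen 2 (squares) relative to the WT spleen sample (vertical line at 1), on a log axis, for the 8 genes and, below the dotted line, Cd8b1 and the sum of 10 T cell markers. Wdfy4 lies 16.7- and 6.85-fold above WT, 4 genes straddle the line, and Cd8a shares with Cd8b1 and the T cell markers the order in which KO spleen 2 is the higher. The T cell sum includes Cd8b1.

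The neighbours of these genes in the cDC1 program were taken from a list of 17 further cDC1 genes. In the tissue comparison 5 of the 17 rose in spleen and 1 fell, where 5.98% and 9.7% of all genes did, and 11 did not pass, with a median log2 fold change of 1.63. Itgae, the integrin chain CD103, rose by 6.91 (SE 1.10, edgeR adjusted p = 0.00314), Tlr11, a sensor of profilin, by 4.19 (SE 0.86), Hepacam2 by 3.57 (SE 0.81), the scavenger receptor Cd36 by 3.56 (SE 0.38) and the inhibitory receptor Btla by 1.33 (SE 0.38). The gene that fell was Irf8, by 1.36 on the log2 scale (SE 0.32, adjusted p = 0.0204), from a mean of 2670 CPM in BM to 1070 CPM in spleen. Batf3 had a log2 fold change of 1.63 (adjusted p = 0.143), Id2 of 1.61 (adjusted p = 0.0588) and Tlr3, the receptor for double-stranded RNA, of 1.67 (adjusted p = 0.190). The first KO spleen sample was the highest of the 9 for 15 of these 17 genes, against 14.3% of all genes. In BM, 0 of the 16 tested differed between KO and WT. For the difference of the genotype effect between the tissues, 2 of 17 passed where 7.01% of all genes did, Plpp1 and Pdia5, which had 1 and 0 counts in WT spleen against 203 to 851 in KO spleen.

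**Figure D5:**
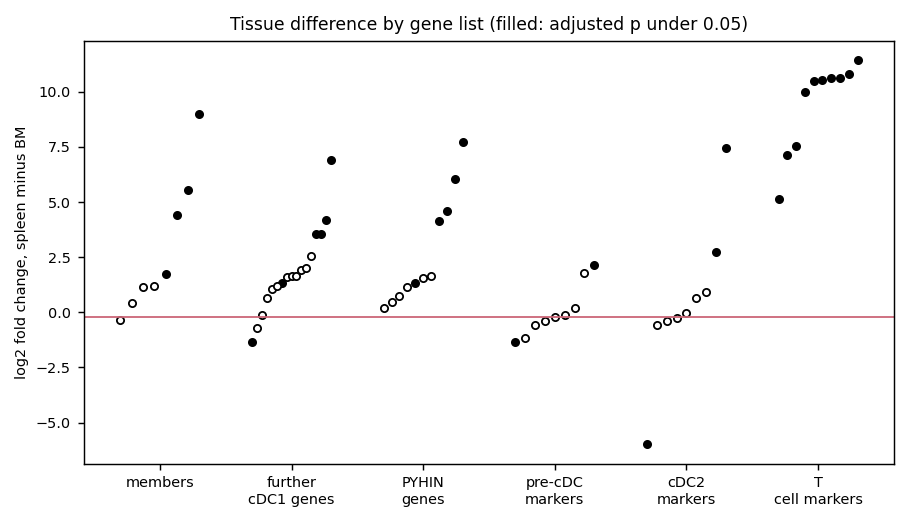
Fitted log2 fold changes between spleen and BM for the genes of 6 lists, each ordered from low to high, with filled points for an adjusted p under 0.05 in edgeR and the median of all genes as a red line at -0.21. Most of the 8 genes (first column), of the further cDC1 genes and of the PYHIN genes lie above the line, pre-cDC and cDC2 markers lie on both sides of it, and all T cell markers lie far above. The lowest cDC2 point is Mgl2, which had at most 1 count in any spleen sample.

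Partners and relatives of the 8 genes were looked at in the same way. Of 15, 13 were tested between tissues, and 4 rose and 0 fell where 5.98% and 9.7% of all genes did. Xcl1, the ligand of XCR1, had 0 to 2 counts in BM and 1035 to 1471 in spleen, at least 244-fold higher against a floor of 3 counts in each BM library. Crtam, the binding partner of CADM1 on activated T and NK cells, had 0 counts in all 6 BM samples and 462 to 1409 in spleen, at least 153-fold higher. Both are lymphocyte genes, and they moved with the T and NK cell markers given above. Cd8b1, which is also among the T cell markers, and Nbeal2, a BEACH protein like WDFY4, rose as well, Nbeal2 by 1.79 (SE 0.35, edgeR adjusted p = 0.00815). The other BEACH genes Wdfy3 and Lyst had values of -0.21 and 1.62, and the lysosomal hydrolases Ppt2, Tpp1 and Asah1 had 0.55, -0.44 and 0.84. None of these 5 passed the test. In the test of the genotype effect between tissues, 2 of the 13 passed where 7.01% of all genes did, Faah and Lrba, both at 0 counts in WT spleen. In BM, 0 of 10 differed between genotypes.

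Of 14 PYHIN genes, 12 were in the table and 11 were tested between tissues. Of these 5 rose in spleen, where 5.98% of all genes did, Ifi208 by 7.74, Ifi206 by 6.05, Ifi214 by 4.59, Ifi213 by 4.13 and Mndal by 1.35 on the log2 scale, with edgeR adjusted p-values from 0.00180 to 0.0105. Ifi209 at 1.15 (adjusted p = 0.0516) and Ifi203 at 0.75 (adjusted p = 0.110) did not pass, as Ifi205 did not at 1.15. In WT spleen, KO spleen 1 and KO spleen 2, the counts of Ifi209 were 11410, 6583 and 7925 and those of Mndal 10099, 6371 and 6857, both highest in WT, while those of Ifi205 were 5526, 11534 and 2030. Ifi211, at 1421, 2309 and 446 counts, had the same order as Ifi205. In BM, 0 of 10 PYHIN genes tested differed between genotypes.

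Finally, the genes whose profile over the 9 samples was closest to each marker were found among 15768 genes, by the root mean square difference of log2 CPM after centring each gene. For Xcr1 they were Tlr11 (0.53), Hepacam2 (0.66) and Treml4 (0.68), the first and second of which are among the further cDC1 genes above. For Cadm1 they were Treml4 (0.76), Xcr1 (0.90) and 2310031A07Rik (0.94). The nearest profiles to Cd8a were all of T lymphocyte genes, Cd2 (0.95), Trbc2 (1.03) and Zap70 (1.10). Naaa was nearest to Ffar4 (0.34), Ciita (0.36), which encodes the transactivator of MHC class II, and Tbc1d4 (0.36), and Ppt1 was nearest to Tbc1d4 (0.23), Fam102b (0.32) and Cysltr1 (0.41). Plbd1 (0.41), Sult1a1 (0.42) and Ppfibp2 (0.46) were nearest to Ifi205, and Slc26a10 (0.43), Phf11c (0.44) and Papolg (0.44) to Wdfy4. Cd24a, whose level varied least in BM, was nearest to Pex3 (0.20), Trmt12 (0.21) and Gm5456 (0.21). Within the 8, Xcr1 and Cadm1 were each other's nearest, as were Naaa and Ppt1 (0.42). The 9 points share their hosts, tissues and libraries, so these distances describe the samples and carry no test.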

How the data were processed

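Bulk RNA-seq of 9 pre-cDC samples was grouped by genotype and tissue as labelled, with the digit of each title as its number. The authors deposited RSEM expected counts for 51912 genes, not normalized, 25.6% of whose nonzero values are not whole, and log2-scale values after a variance stabilizing transformation (VST) for 20810 genes. The submitters' processing notes name Trimmomatic 0.36, STAR 2.5.2, RSEM 1.3.0, DESeq2 1.18.1 and GRCm38. Kit and counting are not stated to use strand. Symbols, coordinates and exon lengths came from GENCODE M21, which gave a symbol for 51633 identifiers.

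Counts were rounded to whole numbers. Groups were compared with edgeR 4.0.16 in R 4.3.3 (TMM, filterByExpr, quasi-likelihood test, two-sided, Benjamini-Hochberg over all genes tested, threshold 0.05). The genotype test in BM used its 6 samples, the tissue test all 9 with genotype as a covariate, and the difference of genotype effects came from a fit of the 4 groups. The study's methods score and regress out genes of a chromosome 1 interval that differs between the CD45 strains, which was an alternative here. DESeq2 1.42.0, limma 3.58.1 (voom, and on VST values), other filters and scaling, a replicate block and omission of each sample were further alternatives. Two-sided exact permutation tests used log2 CPM with a prior count of 2. Counting intervals and floors of 3 counts cover counting error only. Each sample was a pool of mice, and by the total in the study's figure legend samples of different groups shared hosts that the labels do not name. No 2 replicates agreed within counting noise (chi-square per gene 29.1 to 258).

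The 8 genes and the lists were chosen with earlier results of these data known. The genes named are the 8, those past the threshold or sharing a role in the lists, and the 3 nearest profiles to each. The fits were tested on simulated counts. One marker list is not reported here.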

Additional observations from a re-analysis of the deposited data

How the results depend on the processing

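Between KO and WT BM, where 4 genes were called, there were 11 with DESeq2, 10 without a filter on low counts, 0 with limma on VST values (854 at an unadjusted p under 0.05), 1 without the chromosome 1 interval, 8 without both BM samples numbered 1 (an alternative chosen after seeing the data), and 2 to 15 when 1 sample was left out. None of the 8 marker genes was called in any of 17 alternatives. Between tissues, where 2479 genes and 4 of the 8 were called, the genes were 4129 with DESeq2, 1004 with the replicate block, 1336 with KO samples alone, 1063 without both BM samples numbered 1, and 1584 to 3118 when 1 sample was left out. Of the 8, 2 were called with KO samples alone and 2 of the 6 tested with at least 10 counts in every sample, and 3 to 5 when 1 sample was left out. Xcr1 was called under 19 of 20 alternatives, all but the KO samples alone, and Cadm1 and Cd8a under all 19 that tested them, since both failed the filter on 10 counts. For the difference of genotype effects, where 1108 genes and 0 of the 8 were called, the genes were 2195 with DESeq2, 0 with limma-voom (2968 at an unadjusted p under 0.05), 167 with at least 10 counts in every sample, 596 with the replicate block, and 767 to 2677 when 1 sample was left out, and of the 8 there was 1 with DESeq2 and 0 to 1 when 1 sample was left out. The fit without the WT spleen sample could not be made. Uncalled log2 values changed sign as follows. In BM, Cd8a was -0.28 with the replicate block and -1.96 without both samples numbered 1, and leaving out 1 sample gave ranges of -1.39 to 0.89 for Cd8a, -0.13 to 1.07 for Cadm1, -0.13 to 0.013 for Cd24a, -0.060 to 0.79 for Naaa and -0.21 to 0.47 for Wdfy4. Between tissues, Wdfy4 was -2.06 in WT alone and -0.072 without both BM samples numbered 1, and leaving out 1 sample gave -0.45 to 1.34 for Wdfy4 and -0.98 to 0.011 for Cd24a. For the difference of genotype effects, Xcr1 was 0.27 with the replicate block, and leaving out 1 sample gave -2.06 to 0.12 for Xcr1, -1.86 to 0.032 for Cadm1, -0.060 to 2.21 for Cd8a, -1.49 to 0.64 for Cd24a, -2.50 to 0.41 for Ifi205 and -0.43 to 1.68 for Ppt1. The cause of these changes was not tested. Over all 13016 genes tested in BM, deviations of samples with the same number gave r of 0.103, 0.0990 and -0.0814, with a mean of 0.040. Pairs of unequal number gave r from -0.249 to 0.194. For 5 of the 8 genes, both samples numbered 1 nevertheless lay below all other BM samples. The labels do not tie numbers to mice, so the numbers were not taken to pair samples, although samples of different groups shared hosts. Under the replicate block Ppt1 lost its tissue call (adjusted p 0.0693), and no other call among the 8 genes changed. With 3 spleen samples and 1 WT, a spleen genotype difference could be called only for genes whose change was large beside the spread of the groups.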
